A study of Mus musculus with 4 samples.

Results

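Olfactory receptor gene clusters were examined in the population-based replication timing (RT) profile of mouse embryonic stem cells (mESCs). Their members were the 50 kb bins of chromosomes 1 to 19 that overlapped the body of at least 1 protein-coding gene whose symbol is Olfr followed by digits in the mm10 GENCODE vM21 annotation. There were 1087 such genes and 581 such bins of 47928 autosomal bins with an RT value, and every Olfr gene and every Olfr bin had a value. The bins were 1.21% of the autosomal bins (29.05 Mb), and the genes were 5.22% of the autosomal protein-coding genes. The cells were the diploid line F121-9, mouse ESCs of the hybrid cas/129 strain, grown in N2B27+2i+LIF, so every library came from 1 line and 1 culture condition. Newly made DNA was labelled by a pulse of BrdU, flow cytometry split S phase into an early and a late part, and the labelled DNA was sequenced in 2 libraries of each part, 4 in all. RT was the log2 ratio of early over late reads in a bin, each scaled by the depth of its fraction, so that a value above 0 (called early here) means a larger share of the early than of the late reads.

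Olfactory receptors are G protein-coupled receptors, and together they form the largest gene family of the mouse. A mature olfactory sensory neuron transcribes 1 receptor gene from 1 allele, while the remaining receptor genes lie in heterochromatin, and in mESCs the family is largely silent. Mammalian receptors fall into the fish-like class I and the larger class II. Early replication in mammalian cells generally goes with open, gene-rich chromatin and late replication with compact chromatin at the nuclear periphery.

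The profile held 1 value per bin for all libraries, and it did not separate the homologues. No replicate error could be computed, the depth of the libraries was unknown, and no difference between genes or clusters was tested. Whether the deposited profile was smoothed is not given in the sources used here. The deviation of a bin from the mean of its neighbours corresponded to an SD of 0.14 on the log2 scale in Olfr bins and 0.14 in other autosomal bins, which describes the roughness of the profile and is no replicate error. All 95% intervals of shares below are exact binomial intervals for the counting of bins or genes only, and neighbouring bins of a cluster shared a replication domain and were not independent.

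The sequences just before the start of 4 Olfr genes are shown as examples from both ends of the RT range. For each class they belong to the earliest and the latest replicating gene among the 148 whose RefSeq and GENCODE starts lay at most 100 bases apart (922 of 1087 Olfr genes had a RefSeq window). Each is the 250 bases before the RefSeq start in GRCm38.p6 (mm10), read 5′ to 3′ on the strand of the gene. Capitals mark matches on either strand to 4 motifs: CCCNNGGG (core of the Olf/Ebf site), TAATTG and TAATGA (homeodomain sites) and TATAAA (core of the TATA box). Olfr544 (class I, RT 2.67) lay at chr7:102488308-102488557 on the minus strand, Olfr583 (class I, RT -4.04) at chr7:103051050-103051299 on the plus strand, Olfr374 (class II, RT 3.38) at chr8:72106790-72107039 on the plus strand and Olfr183 (class II, RT -3.99) at chr16:58995154-58995403 on the plus strand.
Olfr544: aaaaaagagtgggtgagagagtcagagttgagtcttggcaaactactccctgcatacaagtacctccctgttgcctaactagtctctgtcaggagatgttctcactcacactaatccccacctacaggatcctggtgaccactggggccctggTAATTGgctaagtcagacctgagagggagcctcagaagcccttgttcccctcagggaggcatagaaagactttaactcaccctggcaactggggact
Olfr583: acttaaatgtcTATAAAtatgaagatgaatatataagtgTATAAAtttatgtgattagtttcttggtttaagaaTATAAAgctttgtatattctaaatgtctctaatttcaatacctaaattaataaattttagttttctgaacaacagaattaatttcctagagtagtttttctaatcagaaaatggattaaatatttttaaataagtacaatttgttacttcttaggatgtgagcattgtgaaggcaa
Olfr374: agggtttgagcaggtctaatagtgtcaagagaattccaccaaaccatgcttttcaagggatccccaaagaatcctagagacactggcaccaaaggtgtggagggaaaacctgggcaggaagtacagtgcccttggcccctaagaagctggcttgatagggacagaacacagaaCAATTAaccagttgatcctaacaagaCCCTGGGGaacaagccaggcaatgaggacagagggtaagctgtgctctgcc
Olfr183: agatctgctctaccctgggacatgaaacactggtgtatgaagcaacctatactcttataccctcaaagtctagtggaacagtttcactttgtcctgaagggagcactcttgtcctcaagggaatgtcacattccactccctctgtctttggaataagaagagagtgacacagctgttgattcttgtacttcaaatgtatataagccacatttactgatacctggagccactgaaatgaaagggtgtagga

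The Olfr544 window had a GC content of 51.6% and 1 TAATTG, and that of Olfr374 had 50.4% with 1 CCCNNGGG and 1 TAATTG. The Olfr583 window was AT-rich, at 22.8% GC with 3 TATAAA matches. The window of Olfr183, also a late gene, had 43.2% GC and held none of these motifs. Over the 148 windows, the median GC content was 44% for the 25 early genes and 34.4% for the 123 late genes, beside 52.8% for 24814 windows of other autosomal genes. The other windows were 1 per gene symbol, without the limit on starts or a choice by gene type, so the sets were not selected alike. TAATTG was found in 31.8% of Olfr windows and 6.77% of the others, TAATGA in 31.1% and 8.25%, and TATAAA in 32.4% and 11.9%. CCCNNGGG was found in 11.5% of Olfr windows and 12.2% of the others. These matches describe letters in the windows and no factor was measured, and the part of GC content in these shares was not tested.

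Most olfactory receptor genes were late replicating in mESCs. Clusters of 10 genes or more, described below, held 986 of the 1087 genes and also 131 of the 193 early ones. Of 581 Olfr bins, 119 were early, 20.5% (95% interval 17.3 to 24.0), whereas 42.1% of all autosomal bins were early. The median RT of Olfr bins was -1.99 (quartiles -3.28 and -0.41, range -4.36 to 3.62), and that of the other autosomal bins was -0.83 (quartiles -3.11 and 1.89). With each of the 52 gene clusters described below counted once, by its mean, the share above 0 was 44.2% and the median RT was -0.39. Neither was below the value over the autosomal bins, but those are single bins and were not averaged over like spans. The Olfr bins closest to the threshold above and below it had RT of 0.01 and -0.03. Counted by gene, 193 of 1087 Olfr genes were early, 17.8% (15.5 to 20.2), beside 73.5% of all autosomal protein-coding genes with a value. The median RT was -2.13 for Olfr genes and 2.46 for the other autosomal protein-coding genes.

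Olfr bins were short of early values and rich in moderately late ones, and they differed less from the autosomes at the latest end. RT exceeded 1 in 76 Olfr bins, 13.1%, against 33.0% of all autosomal bins. At the early end, 7 Olfr bins (1.20%) lay between 3 and 4, a range that held 12.4% of the other bins. RT from -3 to below -1 was measured in 211 Olfr bins, 36.3%, against 22.0% of all autosomal bins. Below -3 were 187 Olfr bins, 32.2%, against 26.6%. Values from -1 to 1 were as common among Olfr bins (107 bins, 18.4%) as over the autosomes, 18.3%. By gene the gap at the late end was wider, since 387 Olfr genes (35.6%) lay below -3 against 6.86% of all autosomal protein-coding genes. RT exceeded 1 for 115 Olfr genes (10.6%) against 65.1%.

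**Figure D1:**
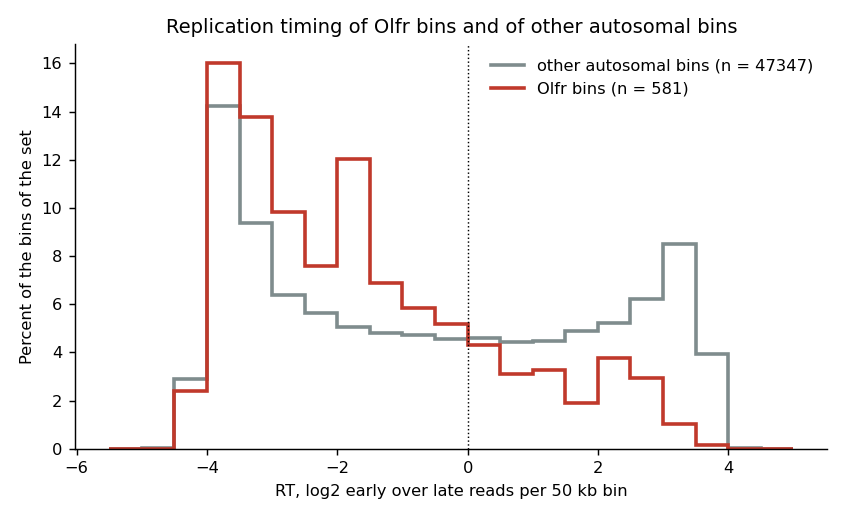
Distribution of RT (x axis, log2 early over late reads per 50 kb bin) as the percent of the bins of each set (y axis) for the 581 Olfr bins and the 47347 other autosomal bins, with a dotted line at 0. Both sets peak between -4 and -3.5, and the other bins have another peak above 3 that the Olfr bins lack. Counted in steps of 1 on the log2 scale, the Olfr bins exceed the others from -4 to 0.

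Among families of like arrangement, the vomeronasal receptors were closest to the olfactory receptors. Vmn1r and Vmn2r genes, which encode pheromone receptors, lay in 312 bins with a value, of which 39 (12.5%, 9.04 to 16.7) were early with a median RT of -2.47. Only 1 bin held genes of both families. Tas2r bitter taste receptor genes had no early bin among 19 (upper limit 17.6%) and a median of -3.07. Taar genes, the small family of trace amine receptors that olfactory neurons also use, lay in 5 bins between -0.92 and 1.15, 2 of them early. Zfp zinc finger genes, which also occur in tandem clusters but are widely transcribed, had 396 early bins of 465 (85.2%) and a median of 2.64.

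Joining consecutive Olfr genes with gaps of at most 500 kb gave 52 clusters on 16 autosomes, and their RT went with their size. The 5 largest held 555 genes, 51.1% of the family. None of the 9 clusters of 30 genes or more had a mean RT above 0, compared with 4 of 14 clusters of 10 to 29 genes, 13 of 20 clusters of 2 to 9 genes and 6 of 9 single genes. In the same order, 9.51% of 715 genes, 23.2% of 271, 60.9% of 92 and 66.7% of 9 were early. All of these shares were below the 73.5% over all autosomal protein-coding genes. In total 23 clusters had a mean above 0. Across the 52 clusters, mean RT and the log2 of the gene number had a Pearson correlation of -0.52 and a Spearman correlation of -0.50, a description of clusters read from 1 profile. In 17 clusters every Olfr bin was early, in 13 every one was late and in 22 both kinds occurred.

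Clusters of 10 genes or more were typically mixed. Of 23 such clusters with 986 genes, 18 had early and late bins, 4 were late throughout and 1 was early throughout. The last ran from Olfr62 to Olfr1328 on chromosome 4 (chr4:118658952-118938612), where all 13 genes were early with a mean RT of 1.39 (SD over 6 bins 0.63). The other 3 with a mean above 0 were Olfr56 to Olfr1380 on chromosome 11 (mean 0.58), Olfr522 to Olfr541 on chromosome 7 (0.55) and Olfr1370 to Olfr1359 on chromosome 13 (0.16).

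**Figure D2:**
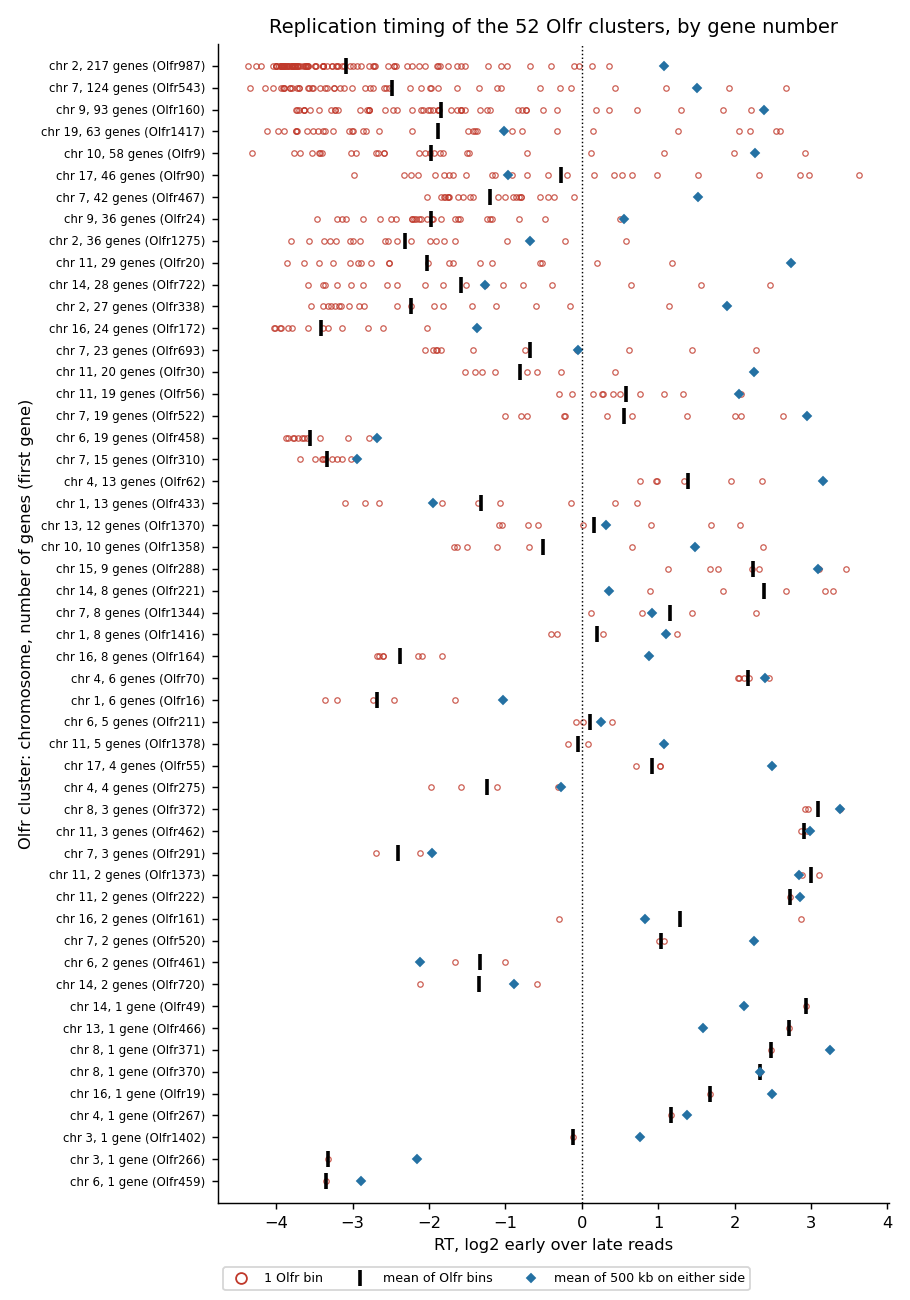
RT (x axis, log2) of every Olfr bin (open circles) in each of the 52 clusters (y axis, from most genes at the top to single genes at the bottom), with the mean of the Olfr bins (black bar) and the mean of 500 kb on either side (blue diamond). Black bars of the 9 clusters with 30 genes or more all lie below 0, while those of small clusters lie between -3.34 and 3.09.

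Between size groups, the medians of the surroundings differed less than those of the clusters, although single clusters and their flanks were about equally spread. Mean RT of a cluster ranged from -3.56 to 3.09 and that of its flanks from -2.95 to 3.38, and across the 52 clusters the 2 had a Pearson correlation of 0.69 and a Spearman correlation of 0.69. Mean RT over 500 kb on either side had a median of 1.59 for single genes, 1.00 for clusters of 2 to 9, 0.90 for 10 to 29 and 1.08 for 30 or more. The median difference between a cluster and its flanks was -0.46, -0.37, -1.62 and -2.73 in the same order. Altogether 42 of 52 clusters had a lower mean RT than their flanks, including 21 of the 23 with 10 genes or more. All 23 clusters with a mean above 0 had flanks with a mean above 0, whereas the 29 late clusters were split into 13 with early and 16 with late flanks. Among the 19 late clusters of 10 genes or more, 7 lay between flanks that were early on both sides and 6 between flanks that were late on both sides.

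The largest cluster, on chromosome 2 (chr2:85330779-90292841), held 217 genes from Olfr987 to Olfr1272 and was late almost from end to end. Its 97 Olfr bins had a mean RT of -3.09 (SD over bins 1.09) and ranged from -4.36 to 0.35, and only 2 of them were early. RT was -3.03 at Olfr987 and -1.52 at Olfr1272, and the closest outer genes were also late, Lrrc55 (an auxiliary subunit of potassium channels) at -0.995 and Gm13769 at -0.88. The closest early bin outside lay 250 kb from the end bin on the left and 100 kb on the right.

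Both early bins of this cluster lay together in its interior. RT climbed from -4.27 on the left to 0.14 in the bin of Olfr1126 and Pramel7 and 0.35 in the bin of Olfr153, Olfr1128 and Pramel6, then returned to -4.01 on the right, with both low points within 500 kb. Pramel6 and Pramel7 belong to the PRAME-like family and are expressed in preimplantation embryos and naive ESCs. The next bins on either side, with Olfr1123 and Olfr1124 on the left and Olfr1129 on the right, were just below 0 at -0.10 and -0.03. Olfr73 (mOR-EG, a receptor for eugenol), farther inside, had RT of -4.01, and Olfr1104 and Olfr1105 were among the 5 lowest genes of the family at -4.27.

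The class I receptors had a cluster of their own on chromosome 7 (chr7:102476579-105369355), taken as the cluster that spans the beta-globin gene Hbb-bs. It held 124 genes from Olfr543 to Olfr692. Of its 47 Olfr bins 4 were early, 8.51% (2.37 to 20.4), with a median RT of -3.11, whereas 115 of 534 class II bins (21.5%, 18.1 to 25.3) were early with a median of -1.91. RT lay below -3 in 53.2% of class I bins and 30.3% of class II bins. By gene, 10 of 124 class I and 183 of 963 class II genes were early. The classes were not matched for cluster size. Over the 9 clusters of 30 genes or more, this one included, 34 of 345 Olfr bins (9.86%) were early with a median RT of -2.47. Class I was a single locus, so class, locus and cluster size cannot be told apart.

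All 4 early class I bins lay at the left end, next to Rrm1 (a subunit of ribonucleotide reductase) at 2.69. Olfr543 and Olfr544, a receptor for azelaic acid that is also found outside the nose, shared the first bin at 2.67. Olfr78, expressed in the carotid body and kidney, was 262 kb from the end and already late at -1.50. Olfr665 and Olfr666 were the lowest genes of the whole family at -4.34. At the right end RT was -1.06 in Olfr692 and -1.06 in the neighbouring Fam160a2.

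Genes of other families inside the class I cluster spanned much of its range. The beta-globin genes Hbb-bt, Hbb-bs, Hbb-bh2 and Hbb-bh1, silent outside the erythroid lineage, shared a late bin at -3.61, and Hbb-y was at -3.36. Trim5 and Trim6, which encode antiviral tripartite motif proteins, stood at 0.18 and 0.08 in the only early bins of the interior, which held no Olfr gene. These bins were close to the threshold, and the neighbouring Trim12a and Trim34b were just below it at -0.004 and -0.006. RT within 500 kb of the Trim5 bin was as low as -3.90 on the left and -4.00 on the right. Over all 52 clusters, 127 protein-coding genes between the Olfr genes had symbols that do not start with Olfr. Of these, 71 were early, a smaller share than the 73.5% over all autosomal protein-coding genes. They were chosen by symbol only and include OR5BS1P, an olfactory receptor by its name.

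The next clusters by size also had a late interior. On chromosome 9 (chr9:37708964-40190134) 93 genes started at Olfr160 (M72, a receptor for acetophenone) with RT of 0.18 and ended at Olfr986 with 2.22, and the mean of its 50 Olfr bins was -1.85. The outer genes Panx3 (a pannexin channel of bone) and Zfp202 were early at 1.13 and 2.53, and a continuous late run of 2200 kb consisted entirely of Olfr bins. On chromosome 19 (chr19:11826803-13921866) 63 genes started at Olfr1417 with 2.20 and ended at Olfr1505 with -3.005. Its interior rose to 0.56 at Keg1, with 2 Olfr genes, Olfr1442 and Olfr1443, in an early run of 3 bins, and mean RT was -1.88.

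**Figure D3:**
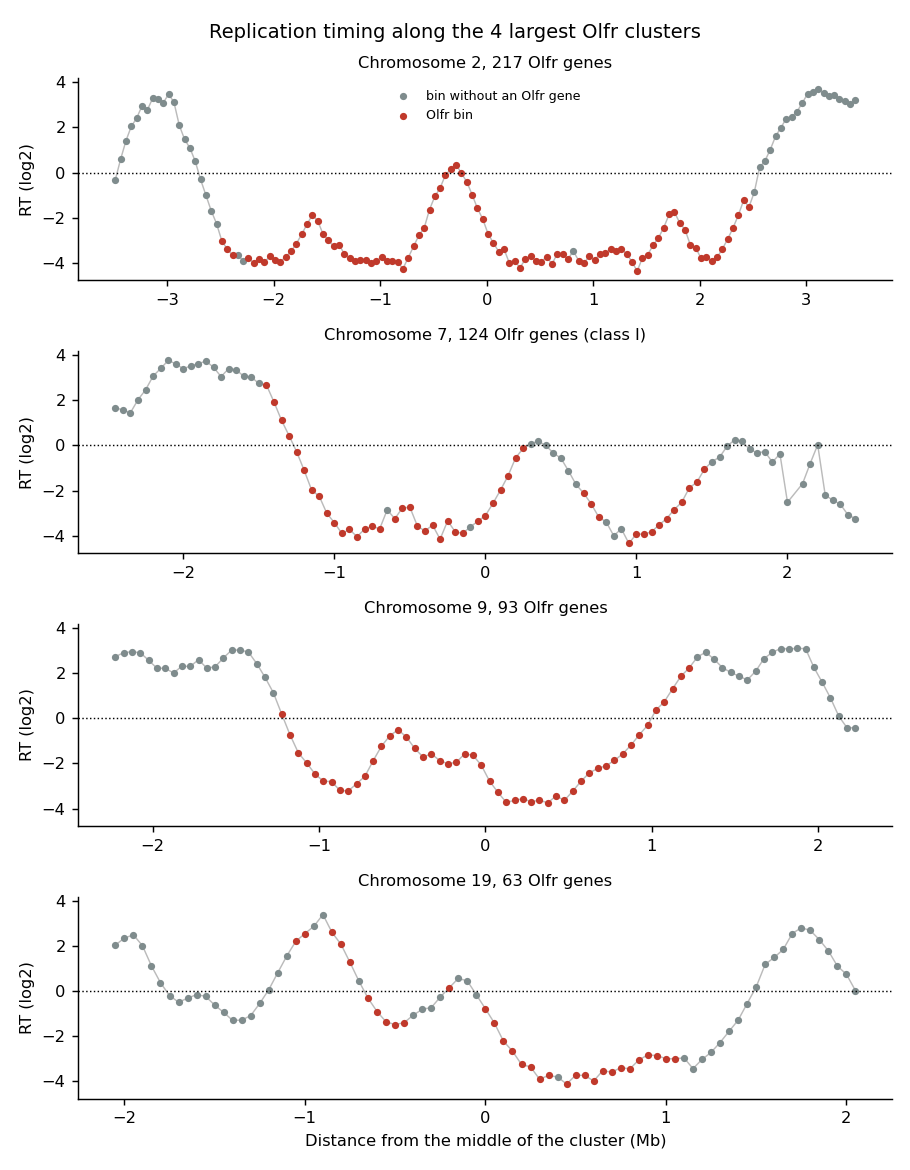
RT (y axis, log2) along the 4 largest Olfr clusters (x axis, distance from the middle of the cluster in Mb) with 1 Mb on either side, in red for bins with an Olfr gene and grey for bins without. Most red bins are late, and some late bins are grey, as to the right of the chromosome 19 cluster. The interior rises above 0 once on chromosomes 2, 7 and 19 and stays below 0 on chromosome 9.

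The fifth cluster, 58 genes from Olfr9 to Olfr827 on chromosome 10 (chr10:128989431-130214403), went from 2.92 at Olfr9, next to Mettl7b (2.92), to -1.48 at Olfr827, next to Neurod4 (a neuronal transcription factor, -0.95). Its mean was -1.98 against 2.27 in its flanks. Olfr794 within it was among the 5 lowest genes of the family at -4.32, and the range of 7.25 between its bins was the widest of the 52 clusters.

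The cluster linked to the major histocompatibility complex on chromosome 17 (chr17:37083871-38336643) held the earliest genes of the family and a late interior. Its 46 genes began with Olfr90 and Olfr91, both at 3.62, in the bin of Gabbr1 (a subunit of the GABA-B receptor). From there RT declined through 2.85 at Ubd (a ubiquitin-like protein), 1.52 at H2-M3 and -1.74 at H2-M2, both nonclassical histocompatibility molecules, to a low of -2.33 at Olfr117, Olfr118 and Olfr119. It rose again to 0.98 at Olfr761 in a run of 5 early bins with 7 Olfr genes, and ended at -2.98 with Olfr136. Olfr124 lay on the way up to Olfr761 at -0.46. With 10 of 25 bins early, the mean was -0.28.

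Among clusters of 10 genes or more, those with the lowest means lay inside longer late regions. They were Olfr458 to Olfr47 on chromosome 6 (19 genes, mean -3.56), Olfr172 to Olfr209 on chromosome 16 (24 genes, -3.42) and Olfr310 to Olfr292 on chromosome 7 (15 genes, -3.33), and all of their bins were late. Their late runs were 7250, 7200 and 5000 kb long, and Olfr bins made up 9.66%, 9.03% and 11% of them. For each cluster of 10 genes or more with late bins, the late run around its latest Olfr bin was taken. In 9 of these 22 runs, at least 80% of the bins were Olfr bins. Clusters with an early run inside had a further late run that was not counted. Olfr467 to Olfr519 on chromosome 7 (42 genes) was also late throughout, at a milder mean of -1.21, in a run of 1150 kb with 95.7% Olfr bins.

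Position within a cluster went with RT. At the 46 ends of the 23 clusters of 10 genes or more, the end bin had a median RT of -0.31 and was early at 22 ends. The median was 0.47 at 50 kb outside and 1.71 at 300 kb outside, and it was -1.78 at 200 kb inside. At 500 kb inside, a depth that 20 ends reached, it was -3.14 with no early bin. Genes within 50 kb of an end of their cluster were early in 49 of 119 cases (41.2%), below the 73.5% over all autosomal protein-coding genes. Those at 50 to 100 kb were early in 31.2%, at 100 to 200 kb in 21.4% and at 200 to 500 kb in 8.68%. Of 186 genes 500 to 1000 kb inside, 2 were early (1.08%), and of 185 genes more than 1000 kb inside, 3 were early (1.62%), all in the Pramel6 and Pramel7 bins. The deepest genes came from only 4 clusters.

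**Figure D4:**
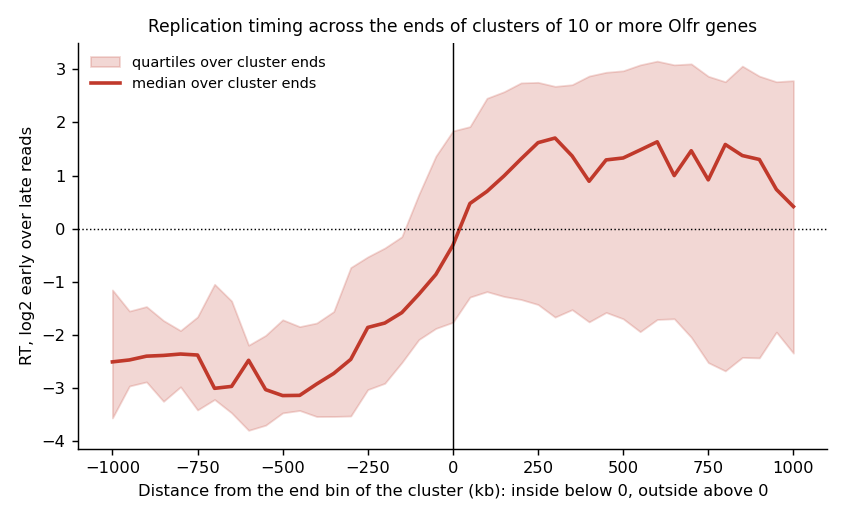
Median RT (line) and quartiles (band) on the y axis (log2) against distance from the end bin (x axis, kb, negative inside) over the 46 ends of clusters of 10 or more Olfr genes. The median crosses 0 within 50 kb outside the end bin, and fewer ends contribute farther inside (20 at 500 kb and 8 at 1000 kb).

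Early stretches sat mainly at the ends. In clusters of 10 genes or more, 21 of 25 early runs touched an end and 4 lay inside, in the clusters of chromosomes 2, 7 (class I), 17 and 19 described above. The inside run of the class I cluster was close to the threshold, with a highest RT of 0.18. Of the 73 early Olfr bins of these clusters, 7 were in the inside runs. The largest step between neighbouring bins within any cluster was 1.13 on the log2 scale, between the bins of Olfr103 and Olfr107 on chromosome 17.

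Outside large clusters, most Olfr genes were early, at a share below that of all genes. In the 29 clusters of fewer than 10 genes, 62 of 101 genes (61.4%) were early, compared with 13.3% in clusters of 10 or more. Over all autosomal protein-coding genes with a value, 73.5% were early. The earliest cluster was Olfr372 to Olfr374 on chromosome 8 (3 genes, mean RT 3.09), followed by Olfr1373 and Olfr1371 on chromosome 11 (2.996), in the surroundings of Ppp2ca and Skp1a. Olfr221 on chromosome 14, at 3.29, and Olfr279 on chromosome 15, at 3.196, were the next highest genes after Olfr91, Olfr90 and Olfr374 (3.38). The cluster of Olfr221 also held Olfr1507 (MOR28, next to the H enhancer that regulates it), which was early at 0.90. The 6 early genes that stood alone were Olfr49 (2.94), Olfr466 (2.72), Olfr371 (2.47), Olfr370 (2.33), Olfr19 (1.67) and Olfr267 (1.17), and the 3 late ones were Olfr1402 (-0.12), Olfr266 (-3.33) and Olfr459 (-3.34).

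Other receptors that have been studied often were spread over the range. Olfr16 (MOR23, a receptor for lyral that is also found in sperm) was late at -3.36. Olfr17 (P2) was early at 0.62 and Olfr2 (I7, a receptor for octanal) was late at -0.36, although both belong to the cluster Olfr693 to Olfr716 on chromosome 7. Olfr17 was 50.8 kb and Olfr2 145 kb from its end.

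By chromosome, Olfr bins were later than the rest of the chromosome on 10 of 16 autosomes by median. The gap was widest on chromosome 19 (-2.84 against 0.50), chromosome 2 (-3.27 against -0.28) and chromosome 6 (-3.43 against -1.18). It was reversed most on chromosome 8 (5 bins, 2.93 against -1.04) and chromosome 15 (7 bins, 2.23 against -0.90), where every Olfr bin was early.

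Base composition moved with RT among the Olfr bins. Their median GC content was 38.5% (41.9% in early and 38.05% in late bins) against 41.4% in other autosomal bins, and repeats masked in the genome sequence made up a median of 46.1% of an Olfr bin and 31.2% of other bins. RT and GC content had a Pearson correlation of 0.74 over 581 Olfr bins and 0.73 over 47342 other bins, which share the libraries and neighbouring domains. At like GC content the gap in the early share between Olfr and other bins was smaller and changed sign along the range. At 36 to 38% GC, 1.05% (0.128 to 3.75) of 190 Olfr bins and 3.997% of other bins were early. The shares were close in the middle: 13.7% (9.32 to 19.2) of Olfr bins and 13.8% of other bins were early at 38 to 40% GC, and 39.2% (28.4 to 50.9) and 32.1% at 40 to 42%. At 42 to 44% GC the Olfr share was higher, 75.6% (59.7 to 87.6) against 56.1%. By median RT, Olfr bins were the earlier in every GC range from 34 to 46%. Their medians were -3.03 against -3.52 at 36 to 38% and -1.90 against -2.83 at 38 to 40%. Above 46% GC the order was reversed, 2.13 against 2.81. The part of base composition in RT was not tested.

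At like gene number the shares stayed far apart. Among bins with 2 or 3 protein-coding genes, 22.5% (18.2 to 27.2) of Olfr bins and 81.3% of other bins were early, and among bins with 4 or 5 genes 22.8% (14.7 to 32.8) and 93.6%. Olfr bins with a single gene were early in 13.7% of cases (8.43 to 20.5) against 50.04%. Within the Olfr bins, RT and the number of Olfr genes in the bin were weakly related (Pearson correlation -0.16 over 581 bins).

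**Figure D5:**
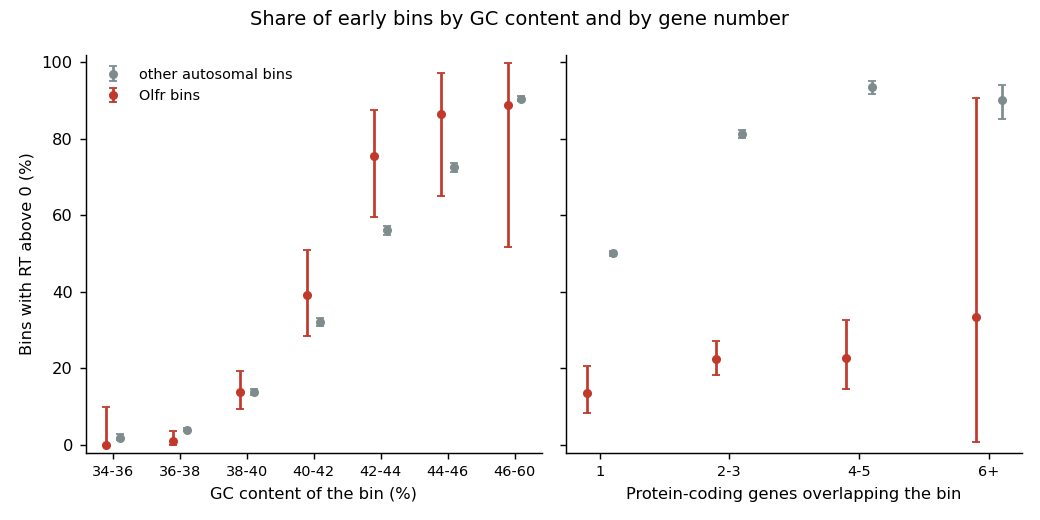
Percent of bins with RT above 0 (y axis) by GC content of the bin (left, x axis in percent) and by the number of protein-coding genes that overlap it (right), for Olfr bins and other autosomal bins, with exact 95% binomial intervals. Both sets follow a similar course with GC content, whereas Olfr bins stay at 13.7% to 22.8% between 1 and 5 genes, where other bins go from 50.04% to 93.6%.

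Genes that act with the receptors were early at a share near that of all genes. Of 37 genes of olfactory signalling, receptor choice and axon sorting, 24 were early, with a median RT of 2.37, beside 73.5% early and a median of 2.30 over all autosomal protein-coding genes. In signalling, 9 of 15 were early, from Pde4a (a cAMP phosphodiesterase) at 3.73 to Pde1c (another phosphodiesterase of the cilia) at -2.29. Gnal, the G protein alpha subunit coupled to the receptors, was at 2.37, Adcy3, the adenylyl cyclase it activates, at 3.01, and Omp, the olfactory marker protein, at 2.37. Cnga4, a subunit of the olfactory cyclic nucleotide-gated channel that lies close to the right end of the class I cluster, was at -0.72. Of 16 regulators of receptor choice 13 were early, from Atf5 (a transcription factor of the receptor feedback signal) at 3.81 to Emx2 (a homeodomain factor) at -1.78. Lhx2 and its partner Ldb1, which join the enhancers of receptor genes, were at 3.12 and 3.18, and Lbr, the lamin B receptor that keeps heterochromatin at the nuclear envelope, was at 3.34. In axon sorting 2 of 6 were early, with Kirrel2 (a cell adhesion molecule) highest at 3.42 and Sema3a (a repellent guidance cue) lowest at -3.72.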

How the data were processed

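Population-based Repli-seq was analysed in 4 libraries of F121-9 mESCs (2 early and 2 late S-phase). The authors took the log2 ratio of early over late reads, each scaled by depth, per 50 kb bin, and deposited 1 log2 value per bin for all libraries (51427 bins). Submitters' processing notes name Bowtie2, SAMtools, bedtools and mm10, and their versions, the filters on bins, any smoothing and how replicates were combined are not given in the sources used here. The deposited log2 values were used unchanged. A bin counted as a member when any base overlapped an Olfr gene body; the RT of a gene was the mean of its bins weighted by overlap. GC content and masked sequence were read from the RefSeq GRCm38.p6 assembly.

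No test was run. Named genes were the 5 Olfr genes with the highest and the 5 with the lowest RT, often studied receptors (Olfr151 is not protein-coding in this annotation and was no member), first and last genes of clusters of at least 10 genes, neighbours of the 5 largest clusters, Olfr genes alone in their cluster and the extremes of the pathway list. Other genes named were chosen after their values were seen, as was the limit of 100 bases between RefSeq and GENCODE starts. The members and lists were chosen with earlier results of these data known. Scripts were tested on simulated data. Python 3.11.15, numpy 2.4.6, scipy 1.17.1, pandas 2.3.3, matplotlib 3.10.9 and bedtools 2.31.1 were used.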

Additional observations from a re-analysis of the deposited data

How the results depend on the processing

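Of 27 alternatives, 20 moved a value by little, and counting clusters in place of bins moved it most. With each of the 52 clusters counted once, 44.2% of the cluster means were above 0, where 20.5% of Olfr bins were early. The median of the cluster means was -0.39, where that of Olfr bins was -1.99. Over all autosomal bins the values were 42.1% and -0.85. These are single bins that were not averaged over like spans, so cluster means are not directly comparable with them. Without the largest cluster, the share of early Olfr bins was 24.2% and their median RT was -1.75. With early set above the autosomal median the share was 30.5% (50% of all autosomal bins), and with early set above 1 it was 13.1% (33.0%), with 115 genes early in place of 193. A running median over 5 bins, whole cluster spans, other biotypes and chromosome X changed the share and the median less. Gaps of 200 kb and 1 Mb gave 59 and 47 clusters, of which 27 and 21 had a mean above 0. No paired analysis was possible because 1 combined value per bin was deposited for all 4 libraries, and for the same reason no library could be left out. Depth is unknown and limits precision to an unknown degree.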

Other observations

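Protein-coding Olfr genes also occur on chromosome X, outside the bins described above. Of these 6 genes, 5 lay together and were late, at RT -2.98 (Olfr1320), -3.001 (Olfr1321), -3.31 (Olfr1322), -3.45 (Olfr1323) and -1.40 (Olfr1324). Olfr1325, elsewhere on the chromosome, was early at 1.09. The labels do not give the sex of the line, and the values combine all copies of the chromosome.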
